A study of Mus musculus with 27 samples.

Results

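The transcriptome of mouse hindlimb buds (HLBs) was compared with that of forelimb buds (FLBs) at E10.5 of embryonic development. The comparison used 5 of the 27 RNA-seq libraries of the series, which were HLB replicates 1 and 3 and FLB replicates 1, 2 and 3, chosen by their labels. HLB replicate 2 was left out, because it lists 0 for nearly all genes of chromosomes 5 to 9, X and Y and of the distal part of chromosome 4. Of 3944 genes from that region that exceeded 2 CPM in both other HLB libraries, 3934 were listed at 0 in replicate 2, against 6 of 7301 genes placed elsewhere. The buds were amputated from Slc:ICR embryos with no cell sorting, so that mesenchyme, surface ectoderm, vessels, blood and any adjoining trunk tissue were sequenced together. No transgene, mutation or treatment is named for the E10.5 groups. Neither the labels nor the methods, which name the number of embryos dissected, say how embryos were divided between the libraries. The p-values thus measure the spread between these libraries, which may be technical. Early FLBs and early HLBs, 3 libraries each and both labelled E10.0, were used for 1 further test, of whether the difference between the limb types was the same at the earlier stage. The text of the study places the early HLBs at a later stage than the early FLBs, which the labels do not. The early groups may thus not match in age, and in them limb type and stage cannot be told apart.

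Forelimbs and hindlimbs arise from the lateral plate mesoderm at different levels of the trunk, and hindlimb development lags that of the forelimb at any one embryonic day. The T-box factor Tbx5 starts the forelimb bud, whereas Isl1 acts in the hindlimb field and Pitx1 with its target Tbx4 gives the hindlimb its character. Hox genes of 4 clusters mark position along the trunk and, later, along the limb, and Fgf10, Fgf8 and Shh keep the bud growing. In this design, limb type and developmental progress at the same embryonic day cannot be told apart.

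Upstream sequences were taken from RefSeq for genes on which the results turn, so that a reader can see the promoters that carry the hindlimb-high genes Tbx4, Isl1 and Lin28a and the forelimb-high genes Hoxd13 and Hoxd12. Each is the 250 bases before an annotated start on GRCm38.p6, written 5′ to 3′ on the strand of the gene. Capitals mark matches on either strand to TAATCC (the bicoid-type site of Pitx factors), GGTGTGA (a T-box half-site), TTTATNG (a posterior Hox site), TATAAA (the TATA box of core promoters) or CCAAT (the box bound by NF-Y). The starts of Tbx4 and Lin28a lie inside the spans listed for these genes, so their sequences do too. 7 of 12 genes looked up had an entry, and Tbx5, Pitx1, Hoxc9, Hoxc10 and Hoxc11 had none.
Tbx4, chr11:85896515-85896764, plus strand: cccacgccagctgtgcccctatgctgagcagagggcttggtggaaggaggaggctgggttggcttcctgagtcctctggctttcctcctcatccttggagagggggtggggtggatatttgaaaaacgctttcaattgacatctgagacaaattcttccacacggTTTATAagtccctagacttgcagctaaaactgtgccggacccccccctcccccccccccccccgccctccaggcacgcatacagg
Isl1, chr13:116309689-116309938, minus strand: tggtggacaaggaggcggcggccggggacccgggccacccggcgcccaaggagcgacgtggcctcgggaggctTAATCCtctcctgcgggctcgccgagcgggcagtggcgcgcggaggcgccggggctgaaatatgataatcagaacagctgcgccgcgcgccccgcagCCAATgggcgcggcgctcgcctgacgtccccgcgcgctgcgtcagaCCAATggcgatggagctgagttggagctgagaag
Hoxd13, chr2:74667975-74668224, plus strand: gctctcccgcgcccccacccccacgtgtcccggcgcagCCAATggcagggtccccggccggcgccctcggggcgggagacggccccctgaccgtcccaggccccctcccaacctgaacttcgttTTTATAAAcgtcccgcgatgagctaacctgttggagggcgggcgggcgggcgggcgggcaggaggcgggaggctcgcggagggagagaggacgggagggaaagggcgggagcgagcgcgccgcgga
Hoxd12, chr2:74674763-74675012, plus strand: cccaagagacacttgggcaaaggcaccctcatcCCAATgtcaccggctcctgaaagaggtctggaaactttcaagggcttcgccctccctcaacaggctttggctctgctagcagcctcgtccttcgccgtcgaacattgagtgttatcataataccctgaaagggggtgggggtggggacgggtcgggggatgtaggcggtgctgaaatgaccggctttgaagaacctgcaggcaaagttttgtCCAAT
Lin28a, chr4:134018817-134019066, minus strand: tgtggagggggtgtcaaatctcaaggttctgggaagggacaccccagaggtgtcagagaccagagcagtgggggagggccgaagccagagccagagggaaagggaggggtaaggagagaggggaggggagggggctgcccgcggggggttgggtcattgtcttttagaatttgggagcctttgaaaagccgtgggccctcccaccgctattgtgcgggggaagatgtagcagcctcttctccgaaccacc
The Tbx4 sequence held 1 match, to TATAAA on the reverse strand, and the Lin28a sequence held none. Isl1 held 1 match to TAATCC, which starts 177 bases before the start of transcription, and 2 to CCAAT. Hoxd13 held 2 overlapping TATAAA matches and 1 to CCAAT, and Hoxd12 held 2 to CCAAT. Read on the other strand, the Hox site TTTATNG ends in the last letters of the TATA box, so the letters of these motifs can overlap. Among 32536 distinct promoters of the same length, 6.25% held TAATCC, 3.33% GGTGTGA, 9.74% TTTATNG, 12.3% TATAAA and 33.8% CCAAT. A match describes letters only, and binding was not measured.

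The deposited values are CPM, read counts of a gene relative to 1000000 reads in total, and the smallest steps between low values put the depth at 5543745 to 5908857 reads on genes in the 5 libraries. The values were scaled between libraries, and all levels below are scaled CPM. A count of 3 reads corresponds to 0.508 to 0.541 CPM before scaling, and levels of that order are near the limit of detection. The early libraries were deeper, and the same 3 reads correspond there to 0.149 to 0.165 scaled CPM. The 2 HLB libraries correlated at 0.9915, FLB pairs at 0.9908 to 0.9912, and pairs of an HLB and an FLB library at 0.9767 to 0.9817. The 10 limb mesenchyme markers checked were present in all 5 libraries, from 31.5 for Fgf10 to 731.5 for Prrx1. Xist, expressed in female cells, lay between 323 and 821 in FLBs and between 93.0 and 216 in HLBs (adjusted p = 0.17), and the Y-linked Ddx3y between 14.4 and 49.1 in FLBs and between 28.9 and 43.3 in HLBs. Both transcripts were present in all 5 libraries, so each library held RNA of both sexes, which a single embryo would not give. The part of embryo sex in the results was not tested. Fold changes are on the scale of log2(scaled CPM + 0.5), which understates those of low genes.

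The genes that define the limb type separated the groups as labelled. Tbx5 was at 153, 163 and 170 in FLBs and at 0.181 and 0.177 in HLBs, where it rests on 1 read per library. The reads of Tbx5, 2871 over 3 FLB libraries and 2 over both HLB libraries, gave a ratio of 907 per unit of depth, with an exact 95% interval of 251 to 7490 that covers counting error only. Tbx5 (chr5:119796514-119885220) was thus nearly absent from HLBs. Pitx1 was at 1.02, 0.661 and 0.867 in FLBs and at 231 and 242 in HLBs, a log2 fold change (HLB over FLB) of 7.46 ± 0.17 (SE) with an adjusted p of 2.78e-43. Tbx4 was at 12.3, 11.9 and 11.8 in FLBs and at 168 and 170 in HLBs, a change of 3.76 ± 0.10 with an adjusted p of 9.68e-41. Unlike Pitx1, Tbx4 was well above the limit of detection in the opposite limb bud. Isl1 was at 2.38, 2.31 and 3.47 in FLBs and at 16 and 13.8 in HLBs, and rose by 2.27 ± 0.23 (adjusted p = 2.34e-12). The left-out HLB replicate 2, in the chromosomes it kept, had 156 for Tbx4, 235 for Pitx1 and 10 for Isl1, each nearer to the other HLB libraries than to any FLB library.

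**Figure D1:**
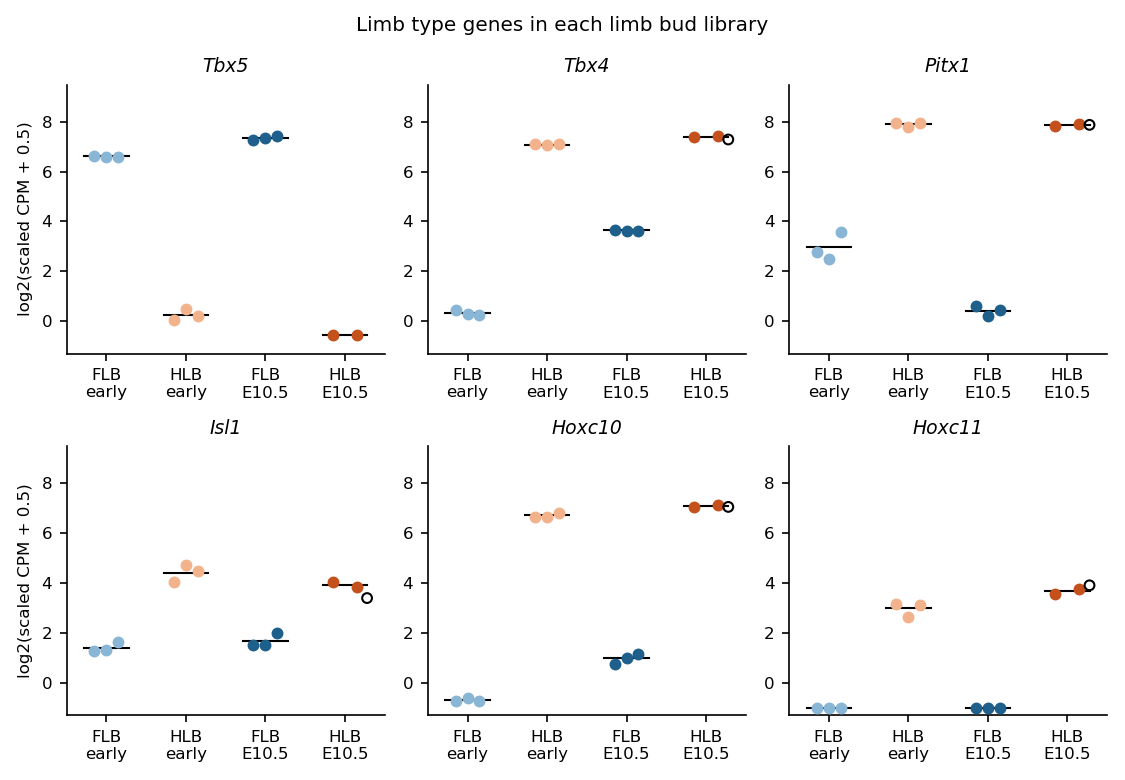
Level of Tbx5, Tbx4, Pitx1, Isl1, Hoxc10 and Hoxc11 as log2(scaled CPM + 0.5), with 1 point per library of the early and E10.5 buds, a line at each group mean and an open circle for the left-out HLB replicate 2. At E10.5 the HLB and FLB libraries do not overlap for the 6 genes, with Tbx5 at 153 to 170 in FLBs against 0.177 to 0.181 in HLBs and Pitx1 at 231 to 242 in HLBs against 0.661 to 1.02 in FLBs.

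Across the 12867 genes tested, 1681 (13.1%) were higher and 1476 (11.5%) lower in HLBs at an adjusted p of 0.05 (limma, Benjamini-Hochberg). In either direction 24.5% of the genes passed, which is the background for the gene groups below. Changes over 2-fold were fewer and mostly toward lower levels in HLBs, with 53 genes (0.412%) higher and 324 (2.52%) lower. The libraries of the groups did not overlap for 49% of the genes tested. With CPM as deposited and no scaling, 933 genes were higher and 2072 lower, so the share of calls that were higher fell from 53.2% to 31%. The median log2 fold change of all genes was 0.01 with scaling and -0.06 without. Without limma's variance trend and robust estimation, 192 genes were higher and 598 lower, and without HLB replicate 1 the count of higher genes was 1029. Of the 221 named genes past the threshold, 88 kept the call without the trend and robust estimation and 187 without HLB replicate 1.

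**Figure D2:**
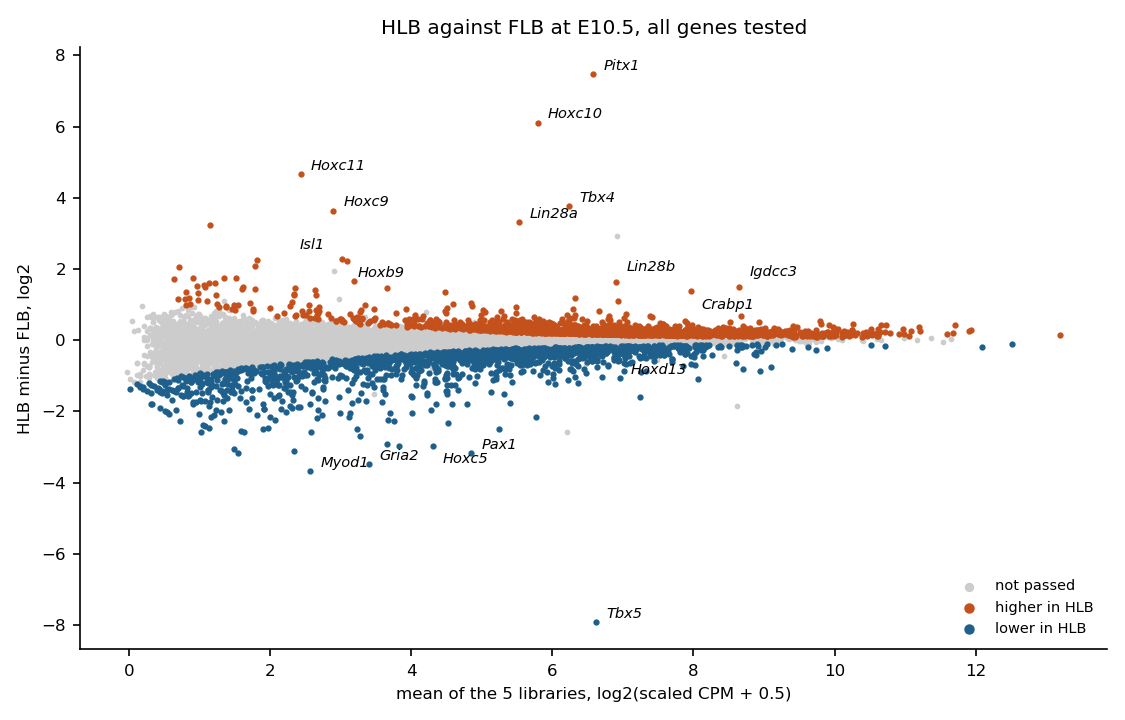
Log2 fold change of HLBs over FLBs against the mean log2(scaled CPM + 0.5) for the 12867 genes tested, with genes past an adjusted p of 0.05 coloured by direction. Pitx1, Hoxc10 and Hoxc11 lie at the top of the plot and Tbx5 at the bottom, and 324 genes lie beyond a 2-fold fall against 53 beyond a 2-fold rise.

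Beyond the selectors and Hox genes, the largest rises among genes at 8 CPM or more included RNA-binding, retinoic acid and metabolic genes. Lin28a, which blocks maturation of let-7 miRNAs, had the largest of them and is described with its group. Arg1, the urea cycle arginase, was at 4.60, 4.96 and 3.47 in FLBs and at 12.3 and 17.8 in HLBs, a change of 1.68 ± 0.21 (adjusted p = 2.12e-09). Igdcc3, an immunoglobulin-domain membrane protein, was at 221, 274 and 200 in FLBs and at 659 and 645 in HLBs. It rose by 1.5 ± 0.17 with an adjusted p of 0.0137, which became 0.128 without HLB replicate 1, 0.105 without HLB replicate 3 and 0.0596 without FLB replicate 1. The FLB libraries of Igdcc3 were all below the HLB libraries and ranged from 200 to 274.

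Genes that start within 500 kb of the selectors were also examined. Tbx2 neighbours Tbx4 and Tbx3 neighbours Tbx5, and both encode T-box repressors expressed at the margins of the limb bud. Tbx2 was lower in HLBs at 45.9 against 82.0 CPM (-0.82 ± 0.08), opposite to Tbx4. Tbx3 was lower at 45.8 against 74.7 CPM (-0.71 ± 0.09), in the direction of Tbx5. AW549542, a locus near Tbx5, was at 3.41, 3.30 and 7.11 in FLBs and at 0.726 and 0.530 in HLBs (-2.11 ± 0.32, adjusted p = 5.33e-07). Brip1 and Ints2 near Tbx4 and Rbm19 near Tbx5 did not pass the test, with adjusted p-values of 0.806, 0.411 and 0.562, while Med13 near Tbx4 fell by 0.25. The neighbours of Tbx5 and Tbx4 that passed were thus all lower in HLBs, and the other tested ones changed little. Near Pitx1, Pcbd2 rose by 0.59 and Dbn1 and Fam193b fell by 0.12 and 0.23, and each of the 3 lost its call when HLB replicate 1 was left out (adjusted p of 0.166, 0.338 and 0.211). Cxcl14, a chemokine gene 463.6 kb from Pitx1, had means of 104 in FLBs and 65.6 in HLBs and did not pass (adjusted p = 0.102). No gene near Isl1 was listed within this distance.

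Hox genes of the 4 clusters differed between the limb buds by cluster and by position within the cluster. Of 35 Hox genes tested out of 39 listed, 8 were higher and 21 lower in HLBs. In the Hoxc cluster, 3 of 8 tested genes were higher and 4 lower, with a median change of -0.46 against 0.01 for all genes. Hoxc10 (chr15:102966796-102971898) was at 1.19, 1.49 and 1.74 in FLBs and at 132 and 138 in HLBs, a change of 6.11 ± 0.17 with an adjusted p of 1.55e-38. Hoxc11 was at 0 in the 3 FLB libraries and at 11.4 and 13.1 in HLBs, which makes it at least 23.5-fold higher against a floor of 3 reads per library. Hoxc9 was at 0.511, 0.991 and 1.04 in FLBs and at 16.5 and 15.5 in HLBs (3.64 ± 0.28). The anterior part of the cluster went the other way. Hoxc5 was at 27.9, 25.1 and 36.6 in FLBs and at 3.27 and 3.35 in HLBs (-2.98 ± 0.16), Hoxc4 fell by 2.03 and Hoxc6 by 1.28. Hoxc8, between these sets, had means of 5.53 and 5.99 and an adjusted p of 0.751. Its change of 0.12 turned to -0.031 without FLB replicate 3. Hoxc13 at the 5′ end of the cluster was low in both, at 2.94 in FLBs and 1.17 in HLBs, and lower in HLBs, with an adjusted p of 0.0577 without HLB replicate 3. Without either HLB library Hoxc11 could not be tested, since the filter needs 2 libraries.

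Hotair, a long noncoding RNA of the Hoxc cluster that lies antisense to Hoxc genes, was chosen after its values were seen. It was at 0 in the 3 FLB libraries and at 5.08 and 3.53 in HLBs, at least 8.28-fold higher. Its direction was that of Hoxc10 and Hoxc11 of the same cluster. Hoxc12, at 0.0907 CPM in HLBs and 0.172 in FLBs, was not tested, and Hoxc13 was lower in HLBs.

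The Hoxb cluster showed the same order at lower levels, with 3 of 8 tested genes higher and 4 lower. Hoxb9 was at 2.73, 2.64 and 3.47 in FLBs and at 16.1 and 15.2 in HLBs (2.24 ± 0.22, adjusted p = 9.48e-13), and Hoxb8 rose by 1.48. Hoxb7 rose by 0.69, a call that was lost without HLB replicate 1 (adjusted p = 0.198) and without 3 of the other 4 libraries. Hoxb2, Hoxb3, Hoxb4 and Hoxb5 fell by 1.23, 1.27, 1.86 and 1.18. The antisense transcript Hoxb3os overlaps 58.5% of the exon bases of Hoxb2 and 63.9% of those of Hoxb3, and without a known strand setting their reads may not be told apart. Hoxb6 lay between the rising and the falling genes in the cluster and did not pass (adjusted p = 0.67).

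In the Hoxa cluster, 2 of 11 genes were higher and 5 lower. Hoxa11 was at 90.8, 101 and 79.4 in FLBs and at 152 and 135 in HLBs, a rise of 0.67 ± 0.08 with an adjusted p of 9.26e-08. Its exons share 568 bases with the antisense transcript Hoxa11as, 24.8% of the exon bases of Hoxa11. Hoxa11as had means of 88.2 in FLBs and 74.3 in HLBs and moved the other way (-0.25), a call lost without HLB replicate 3 (adjusted p = 0.136). As the strand setting of the counting is not given in the sources used here, reads of the pair may not be told apart. Hoxa10 had means of 186 in FLBs and 218 in HLBs (0.23 ± 0.05), with an adjusted p of 0.0713 without HLB replicate 1. Hoxa2, Hoxa4 and Hoxa5, anterior members, fell by 1.06, 1.34 and 0.78. Hoxa6 and Hoxa7 fell by 0.74 and 0.51, and 3 genes of the cluster were lower without HLB replicate 3 or FLB replicate 1. Hoxa13, a gene of the hand and foot plate, had means of 15.2 and 12.1 and an adjusted p of 0.115.

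All 8 tested genes of the Hoxd cluster were lower in HLBs, with a median change of -0.74. The cluster is used in the limb bud for the forearm and then the digits, and its 5′ genes Hoxd11 to Hoxd13 stand for the distal part. Hoxd13 was at 158, 151 and 165 in FLBs and at 76.6 and 72.9 in HLBs, a fall of -1.07 ± 0.06 with an adjusted p of 2.02e-22. Hoxd12 was at 99.0, 88.9 and 96.3 in FLBs and at 47.7 and 56.0 in HLBs (-0.87 ± 0.07). Hoxd11 was at 61.6, 58.5 and 49.3 in FLBs and at 36.3 and 36.4 in HLBs (-0.62 ± 0.09), and 23.9% of its exon bases are shared with another annotated transcript on the same strand. In these genes every FLB library lay above every HLB library. Hoxd10, Hoxd9 and Hoxd8 fell by less, by 0.42, 0.33 and 0.58, and the anterior Hoxd4 and Hoxd3 by 1.07 and 1.79. The exons of Hoxd3 and Hoxd4 share more, 68.6% and 45.1% of their bases with 1 transcript on the same strand, so reads of these genes are uncertain. Unlike Hoxc9 to Hoxc11 and Hoxb7 to Hoxb9, the 5′ genes of Hoxd fell as the 3′ genes did.

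**Figure D3:**
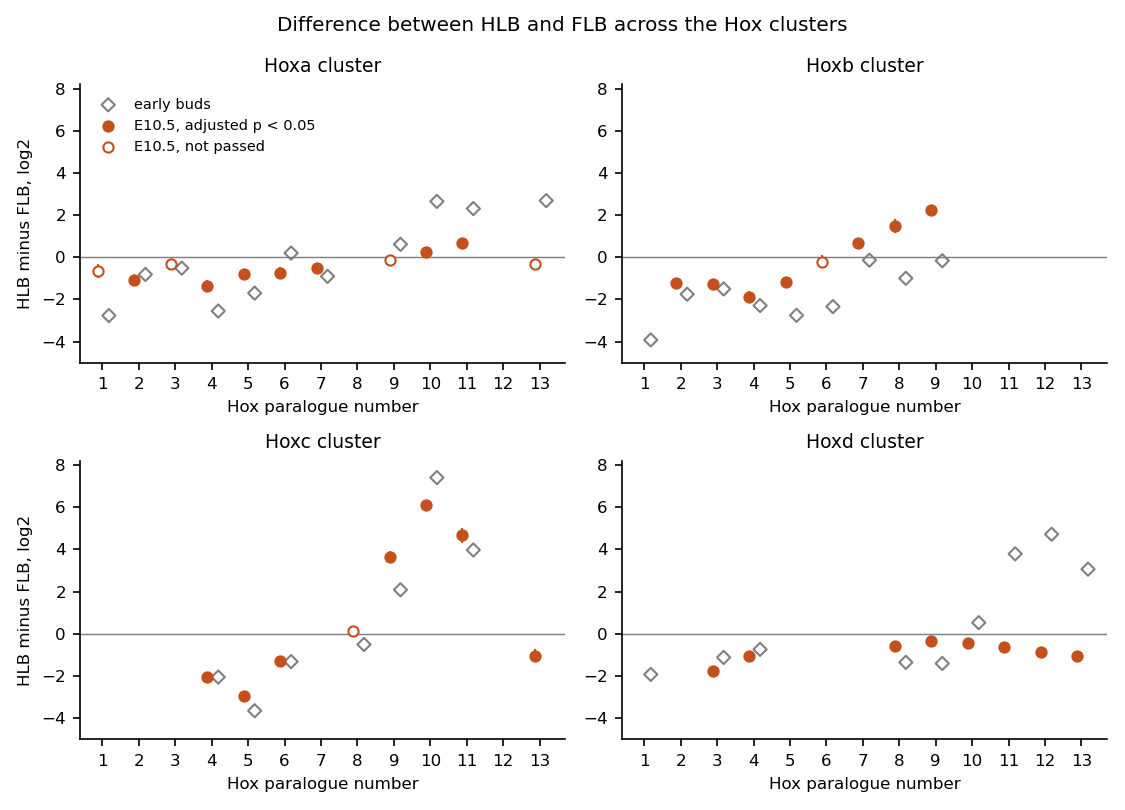
Log2 fold change of HLBs over FLBs at E10.5 (circles with the SE, filled where the adjusted p was under 0.05) and in the early buds (diamonds) against the number of the Hox gene in its cluster. At E10.5 the genes Hoxb2 to Hoxb5 and Hoxc4 to Hoxc6 lie below 0 and Hoxb7 to Hoxb9 and Hoxc9 to Hoxc11 above it, while the 8 Hoxd genes are all below 0 and Hoxd11 to Hoxd13 stand above 0 in the early buds.

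Homeobox genes of the proximal to distal axis changed by small amounts, with 7 of 19 tested genes higher and 3 lower. The proximal factor Meis1 was at 95.3 against 71.9 CPM, a rise of 0.41 ± 0.07. Lhx2, a LIM factor that relays signals of the apical ectodermal ridge (AER) in the distal mesenchyme, was at 141 and 131 in HLBs against 74.8 to 79.5 in FLBs (0.83 ± 0.07). Msx1 was also higher, at 174 against 104 CPM (0.74 ± 0.06), and its relative Msx2 lower, at 25.3 against 49.1 (-0.95 ± 0.10). Genes given to the proximal and the distal bud were thus found on both sides. Shox2, which shapes the proximal skeleton of the limb, fell by 0.45 ± 0.07. Meis2 and Pbx2 rose by 0.21 and 0.13, and lost the call without HLB replicate 3 (adjusted p of 0.0848 and 0.0698).

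Of 24 genes of anterior and posterior patterning, 3 were higher and 8 lower. Sall4, a zinc finger factor needed for the early hindlimb, was at 43.9 and 43.8 in HLBs against 20.3 to 26.6 in FLBs (0.86 ± 0.11, adjusted p = 4.28e-09). Zbtb16, which acts with Gli3 in the early hindlimb skeleton, was at 29.4 and 29.5 against 13.8 to 19.2 (0.77 ± 0.13), and Gli3 rose by 0.23. Among the genes that fell were Tbx18 at 63.1 against 130 CPM (-1.04 ± 0.07), the zinc finger factors Osr1 and Osr2 (-1.08 and -1.04), and Ebf2 (-1.47 ± 0.14). Tbx15 was at 216 against 282 CPM and fell by 0.38. Hand2, the posterior factor that precedes Shh, had 138 and 150 CPM and did not pass (adjusted p = 0.136), nor did Alx4, its anterior counterpart (adjusted p = 0.494). Twist1 fell by 0.14, a call lost without HLB replicate 1 (adjusted p = 0.124). Of 6 genes of the dorsal to ventral axis, 2 were higher and 2 lower, or 1 and 1 without FLB replicate 2. The dorsal marker Wnt7a, below 16 CPM and named after its values were seen, was higher. It had 11.9 against 7.70 CPM (0.59 ± 0.18). The ventral marker En1 was among the lower genes. Rspo2, a Wnt amplifier of the AER, was at 29.7 against 16.6 CPM (0.83 ± 0.13), Emx2, a homeobox gene of the shoulder blade, fell by 0.48, and the dorsal factor Lmx1b had 29.6 against 24.1 CPM with an adjusted p of 0.0508.

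Hedgehog signalling sets digit number from the posterior margin. Of its 15 genes tested, 2 were higher and 2 lower, a share near the 24.5% of all genes that passed. Shh was at 11.9, 12.4 and 11.4 in FLBs and at 13.6 and 8.47 in HLBs (-0.14 ± 0.17, adjusted p = 0.602). Its target Gli1 had 49.9 CPM in HLBs and 49.6 in FLBs (0.01 ± 0.08), and the receptor and target Ptch1 had 77.6 and 70.6 (0.13 ± 0.07, adjusted p = 0.202). Of 15 genes tested, Gli3 and Disp1 were higher and the coreceptors Boc and Cdon lower, at -0.41 ± 0.07 and -0.35 ± 0.06. Disp1 lost its call without HLB replicate 1 (adjusted p = 0.0536), HLB replicate 3 (0.124) or FLB replicate 2 (0.0606).

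The FGF pathway was divided, with 8 of 25 tested genes higher and 8 lower. Fgf8, the ligand of the AER, was at 17.0, 23.8 and 21.3 in FLBs and at 41.7 and 39.2 in HLBs, a rise of 0.96 ± 0.12 with an adjusted p of 1.72e-09. Fgf4, another AER ligand chosen after its values were seen, had 4.49 against 1.29 CPM (1.49 ± 0.32). Of the effector and feedback genes on the list, which FGF signalling is known to induce, Spry4, Spred1, Spred2 and Etv1 did not pass. Those that rose included Etv4 at 75.0 against 53.9 CPM (0.47 ± 0.08), Etv5 at 152 against 126 (0.27 ± 0.06) and Il17rd at 242 against 198 (0.28 ± 0.05). Dusp6 rose by 0.22 and the mesenchymal ligand Fgf10 by 0.32, and both lost the call without HLB replicate 1 (adjusted p of 0.221 and 0.0814). Spry1 rose by 0.36 and Spry2 fell by 0.26, each with the call lost without HLB replicate 3 (adjusted p of 0.0784 and 0.134). The receptor gene Fgfr2 was lower, at 67.2 against 86.4 CPM (-0.36 ± 0.07). The ligands Fgf9 and Fgf18, below 16 CPM and named after their values were seen, fell as well, at 1.79 against 6.24 and at 1.08 against 4.67 CPM.

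In the BMP pathway, 2 of 29 tested genes were higher and 12 lower, and 7 were lower without HLB replicate 3. The ligands Bmp4 and Bmp7 did not pass, at 65.4 against 68.8 and 56.2 against 58.8 CPM (adjusted p of 0.554 and 0.616). Grem1, the BMP antagonist of the feedback between Shh and the AER, was at 40.3 and 36.9 in HLBs against 23.0 to 30.9 in FLBs, a rise of 0.57 ± 0.11. The receptor Bmpr1b, active in condensing cartilage, fell by 0.79 ± 0.15. Of the members below 16 CPM, named after their values were seen, Bmp2 fell from 6.11 to 2.95 CPM and Bmper from 3.91 to 0.804, while Gdf6 rose from 4.28 to 8.50. Id1 and Id2, direct BMP targets, fell by 0.27 and 0.23, which did not hold without HLB replicate 3 (adjusted p of 0.0705 and 0.223).

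In the Wnt pathway 4 of 43 tested genes were higher and 10 lower. Wnt5a, the noncanonical ligand of limb outgrowth, was at 179, 175 and 171 in FLBs and at 120 and 132 in HLBs (-0.47 ± 0.06, adjusted p = 8.82e-10). Wnt11 had 5.37 against 16.3 CPM (-1.51 ± 0.17) and the secreted inhibitor Wif1 12.4 against 30.4 (-1.27 ± 0.13). Tcf7, a nuclear effector and target, rose by 0.65 ± 0.09. The targets Axin2 and Lef1 did not pass, with adjusted p-values of 0.635 and 0.615.

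Retinoic acid, which comes from the trunk and is broken down in the distal bud, had 4 of 15 tested genes higher and 4 lower. Its synthesis enzyme Aldh1a2 was at 6.47, 7.43 and 6.59 in FLBs and at 15.6 and 24.7 in HLBs (1.46 ± 0.18, adjusted p = 1.43e-09). The binding protein Crabp1 was at 151, 155 and 146 in FLBs and at 414 and 382 in HLBs (1.40 ± 0.05, adjusted p = 1.37e-32). Rarb, a receptor that retinoic acid induces, rose by 0.56 ± 0.11. Cyp26b1, which degrades retinoic acid, was lower at 170 against 222 CPM (-0.38 ± 0.05), as was the retinol receptor Stra6 (-0.46 ± 0.08).

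**Figure D4:**
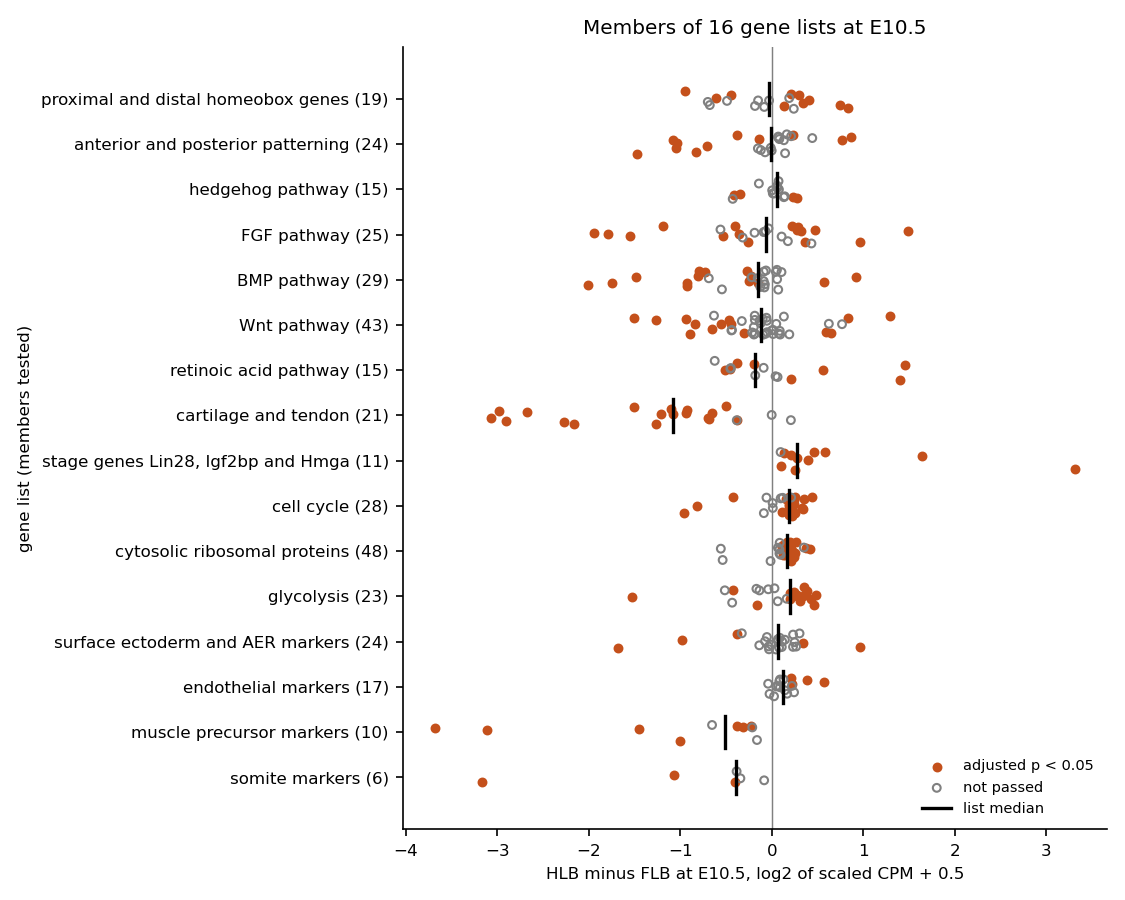
Log2 fold change of HLBs over FLBs at E10.5 for the tested members of 16 gene lists, 1 point per gene, filled where the adjusted p was under 0.05, with a black line at the median of the list. The median of cartilage and tendon genes lies at -1.08 and that of muscle precursor markers at -0.52, while the 39 ribosomal protein genes that passed gather just above 0.

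Genes of cartilage and tendon were lower in HLBs almost throughout. Of 21 tested, 18 were lower and 0 higher, with a median change of -1.08 against 0.01 for all genes. 14 of them were lower without the variance trend and robust estimation. Sox9, which commits mesenchyme to cartilage, was at 125, 120 and 143 in FLBs and at 73.7 and 87.6 in HLBs (-0.68 ± 0.07, adjusted p = 1.6e-09). Its partners Sox5 and Sox6 fell by 0.50 and 1.08. Collagens of the cartilage matrix were further apart, with Col9a2 at 18.7, 19.7 and 25.5 in FLBs and at 2.18 and 2.29 in HLBs (-2.98 ± 0.18), Col9a1 at 45.4 against 106 CPM (-1.22 ± 0.07) and Col9a3 at 1.78 against 14.1 CPM (-2.68 ± 0.21). Col2a1, the main cartilage collagen, was at 188 against 306 CPM (-0.70 ± 0.08). Runx2, the bone factor, was at 16.5, 17.0 and 22.7 in FLBs and at 1.81 and 2.29 in HLBs (-2.91 ± 0.19). The tendon factor Scx was at 23.4 and 21.0 in HLBs against 39.5 to 46.5 in FLBs (-0.93 ± 0.10). Tnc fell by 2.27, though its FLB libraries ranged from 12.1 to 28.4 CPM. Matn4, named after its values were seen, was at 0 in both HLB libraries and at 2.38 to 5.2 in FLBs, at least 7.07-fold lower. Egr1, Col3a1 and Barx2 did not pass. Bulk tissue was measured, so fewer cells of a type and less RNA per cell cannot be told apart for these or the following groups.

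Muscle genes were also lower, with 7 of 10 tested precursor markers lower and 0 higher, and 4 lower without HLB replicate 3, FLB replicate 1 or FLB replicate 2. Myod1, the master factor of muscle, was at 7.32, 7.43 and 12 in FLBs and at 0 and 0.530 in HLBs. Its 157 FLB reads against 3 HLB reads gave a ratio of 33.1 per unit of depth, with an exact 95% interval of 11.1 to 162 that covers counting error only. Myog and Myf5, named after their values were seen, were at 0.544 against 7.24 CPM (-3.12 ± 0.33) and 1.96 against 6.17 CPM (-1.45 ± 0.26). Of these genes, Myog marks cells that have begun to differentiate. Pax3 and Lbx1, which mark muscle precursors as they enter the limb, were closer, at 13.0 against 17.0 and 5.65 against 6.40 CPM. Lbx1 did not pass (adjusted p = 0.644), and Pax3 passed at 0.048 but not without HLB replicate 3 (0.387). Cdh15, a cadherin of muscle cells, fell by 2.57 ± 0.27.

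The other large falls came from genes of several tissues. Pax1, a marker of the sclerotome and of the limb girdle region, was at 45.8, 36.3 and 50.8 in FLBs and at 5.08 and 3.88 in HLBs (-3.17 ± 0.14, adjusted p = 9.19e-27). Meox2, used in somites and limb muscle, was at 38.4 against 81.4 CPM (-1.07 ± 0.08). The glutamate receptor gene Gria2 was at 14, 17.0 and 17.4 in FLBs and at 0.907 and 1.06 in HLBs (-3.48 ± 0.22). Hic1, a transcriptional repressor, was at 13.4, 11.4 and 15.8 in FLBs and at 2.00 and 1.94 in HLBs (-2.50 ± 0.21). The summed level of 13 listed somite markers was 71.9 to 77.7 in HLBs and 149 to 175 in FLBs, with Ripply1 and Ripply2 at 0. Pax1 and Meox2 are themselves on this list and carry most of the gap between the sums. Without Meox2, but still with Pax1, the sums were 34.3 to 38.49 in HLBs and 73.35 to 95.75 in FLBs. Of 6 tested members Pax1, Meox1 and Meox2 were lower, while Tcf15, Foxc2 and Dmrt2 did not pass. The part of somite tissue in the result on Pax1 was not tested.

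**Figure D5:**
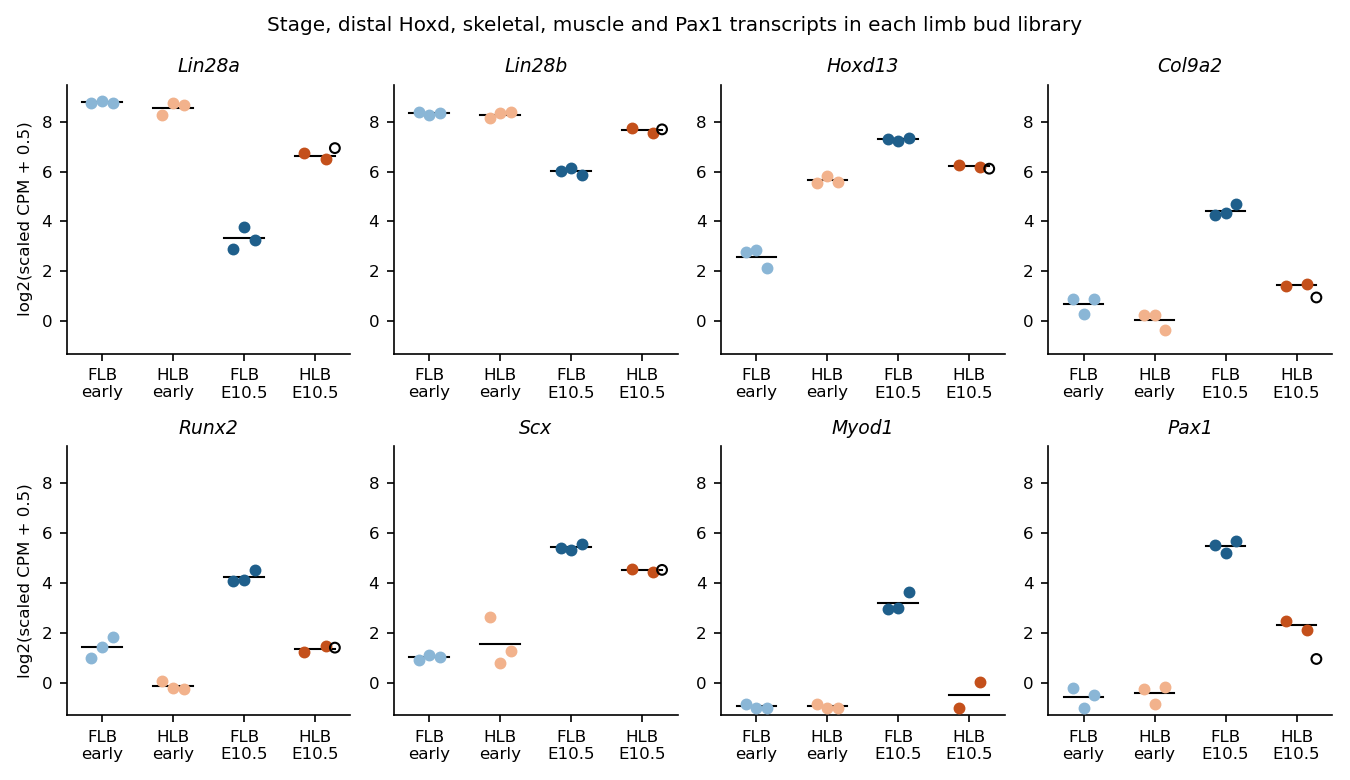
Level of Lin28a, Lin28b, Hoxd13, Col9a2, Runx2, Scx, Myod1 and Pax1 as log2(scaled CPM + 0.5), with 1 point per library of the early and E10.5 buds, a line at each group mean and an open circle for the left-out HLB replicate 2. At E10.5 the FLB libraries lie above the HLB libraries for Hoxd13 and the 5 genes after it and below them for Lin28a (6.98 to 13.4 against 91.1 to 108) and Lin28b (57.4 to 70.2 against 190 to 213).

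Genes of early developmental stages were higher in HLBs. Of 11 genes of the Lin28, Igf2bp and Hmga families and their partners, 10 were higher and 0 lower, and 8 with CPM as deposited. Lin28a was at 6.98, 13.4 and 9.19 in FLBs and at 108 and 91.1 in HLBs, a change of 3.31 ± 0.29 with an adjusted p of 0.00145, which became 0.0607 without FLB replicate 3. Lin28b, which acts on let-7 in the same way, was at 64.7, 70.2 and 57.4 in FLBs and at 213 and 190 in HLBs (1.65 ± 0.07, adjusted p = 6.35e-25). Most others moved much less, with Igf2bp1 at 470 against 408 CPM (0.21 ± 0.04), Mycn at 116 against 96.3 (0.27 ± 0.06) and Arid3a at 126 against 91.5 (0.46 ± 0.07). Only 2 of the 11 were higher without the variance trend and robust estimation. The left-out HLB replicate 2 had 123 for Lin28a and 207 for Lin28b.

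Most cell cycle genes that passed the test were slightly higher in HLBs. Of 28 tested, 18 were higher, 3 were lower and the median change was 0.19. Rrm2, which makes deoxynucleotides, was at 486 against 380 CPM (0.35 ± 0.04), cyclin Ccne1 at 134 against 99.0 (0.44 ± 0.06) and Ccnb1 at 318 against 254 (0.32 ± 0.05). The inhibitor Cdkn1c was at 498, 488 and 524 in FLBs and at 272 and 298 in HLBs (-0.82 ± 0.05, adjusted p = 7.61e-23), and Cdkn1a fell by 0.96 ± 0.16. Cyclin Ccnd2 fell by 0.42 ± 0.04. Of 48 genes of cytosolic ribosomal proteins, 39 were higher and 0 lower, with a median of 0.17. Of 23 glycolysis genes 12 were higher and 3 lower, among them Ldha at 1140 against 850 CPM (0.43 ± 0.04) and Eno1 at 290 against 206 (0.49 ± 0.05). These groups depend on how libraries are scaled and how the spread is modelled. With CPM as deposited, 14 cell cycle, 29 ribosomal and 11 glycolysis genes were higher, and without the variance trend and robust estimation 1, 2 and 3.

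Markers of other cells were measured to show what else was in the dissections. The summed level of surface ectoderm and AER markers was 532 to 565 in HLBs and 521 to 541 in FLBs, and 2 of 24 were higher and 3 lower. Epcam and Cdh1, which mark all epithelium, did not pass, at 41.5 against 38.5 and 46.8 against 42.2 CPM (adjusted p of 0.447 and 0.268). The range of the ectoderm sum overlapped between the groups, whereas Fgf8, itself on this list, did not. Krt5, a basal keratin, fell by 0.38 ± 0.08. Endothelial markers summed to 608 to 637 in HLBs and 547 to 566 in FLBs, with 4 of 17 higher, and 2 without HLB replicate 3 or FLB replicate 1. Plvap, of vessel walls, rose by 0.39 ± 0.09, while the endothelial cadherin Cdh5 did not pass (adjusted p = 0.344). Erythroid markers ranged widely in both groups, from 2787 to 4000 in HLBs and 2892 to 4162 in FLBs, and 0 of 13 passed. Macrophage markers summed to 12.9 to 16.4 and 20.5 to 24.

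Markers of adjoining trunk tissue mostly summed to lower levels in HLBs. Those of the intermediate mesoderm and mesonephros summed to 68.2 to 79.3 in HLBs and 106 to 124 in FLBs, where 3 of 5 tested were lower and Pax8, Nphs1 and Cdh16 were among those at 0. Body wall and mesothelium markers summed to 98.4 to 114 in HLBs and 157 to 177 in FLBs, with Upk3b higher and Gata4 and Tbx18 lower. Without Tbx18 the order of these sums turned, to 38.8 to 47.1 in HLBs and 33.5 to 39.7 in FLBs, and the median change of the list was 0.30. Tail bud and hindgut markers summed to 29.1 to 31.9 and 33.9 to 37.0, with Foxa2 and Hoxb13 at 0. Neural tube and neuron markers summed to 99.1 to 101 in HLBs and 112 to 125 in FLBs, and 6 of 20, among them Sox1, Olig2 and Neurog1, were at 0. Neural crest and glial markers summed to 150 to 155 and 154 to 157, or to 33.4 to 36.7 and 45.8 to 55.7 without Ets1, and Sox10, named after its values were seen, had 1 HLB read against 46 FLB reads. Several of these genes, Osr1 and Tbx18 among them, are also used by limb mesenchyme. The part of trunk tissue in the Hox and patterning results was not tested.

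Whether the difference between HLBs and FLBs was the same in the early buds was tested as the difference of the log2 fold changes, E10.5 minus early, over 11 libraries. Of 13254 genes tested, 1692 (12.8%) had a higher and 1358 (10.2%) a lower value at E10.5, 23% in either direction. The early buds alone had 1152 genes (9.04%) higher and 1423 (11.2%) lower in HLBs among 12744 tested, with 170 (1.33%) over 2-fold higher and 206 (1.62%) over 2-fold lower. With CPM as deposited the difference was higher for 831 genes and lower for 2044. Values of genes close to 0 in a group depend on the added 0.5 CPM.

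The selectors kept their direction in the early buds, with changes in size. Tbx5 had 97.2 CPM in early FLBs and 0.700 in early HLBs, and its difference was -1.55 (adjusted p = 4e-06). Tbx4 had 0.755 CPM in early FLBs and 135 in early HLBs, against 12 and 169 at E10.5, and the difference was -3.00 (adjusted p = 8.54e-12). Tbx4 was thus low in early FLBs, though above the limit of detection there. Pitx1 had 7.66 CPM in early FLBs against 0.850 at E10.5, with 238 and 237 in HLBs, and a difference of 2.52 (adjusted p = 0.00153). For Isl1 the difference of -0.75 did not pass (adjusted p = 0.0618), with 2.17 and 21.3 CPM in the early FLBs and HLBs. Hoxc10 had 0.120 and 105 CPM in the early buds (difference -1.3) and Hoxc9 4.79 and 21.9 (1.55).

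For the 5′ Hoxd genes the direction itself differed. Hoxd13 had 5.63 CPM in early FLBs and 49.8 in early HLBs, against 158 and 74.8 at E10.5, and the difference was -4.14 (adjusted p = 6.59e-06). Hoxd12 had 0.120 and 16.1 CPM in early FLBs and HLBs (-5.59, adjusted p = 6.27e-12) and Hoxd11 2.15 and 35.1 (-4.41, adjusted p = 3.84e-06). HLBs were thus above FLBs in the early buds and below them at E10.5 for these 3 genes, with the limit that the early HLBs may be older than the early FLBs. For Hoxd10 the difference of -0.95 did not pass (adjusted p = 0.117), and for Hoxd9 it was 1.08, with 174 CPM in early FLBs and 64.6 in early HLBs. The same turn was seen in Hoxa11as, at 4.74 and 57.1 CPM in the early buds (-3.73).

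Lin28a and Lin28b were at similar levels in the early limb types, 440 and 383 CPM and 324 and 314 CPM. At E10.5 their mean levels were 9.85 and 99.5 CPM and 64.1 and 201 CPM, with differences of 3.53 (adjusted p = 0.000465) and 1.69 (adjusted p = 1.42e-07). Among cartilage and tendon genes, 12 of 22 tested had a lower difference at E10.5 and 0 a higher one. Col9a1 had 13.5 and 25.4 CPM in early FLBs and HLBs (difference -2.10, adjusted p = 5.52e-09), and Sox9 23.4 and 32.3 (-1.09, adjusted p = 0.0385). Myod1 was below 0.02 CPM in both early groups, and Pax1 was at 0.190 and 0.262, just above the limit of detection of the early libraries. The means of Col9a1, Sox9 and Pax1 stood higher at E10.5 than early in both limb types, which was not tested here. Fgf8 was higher in HLBs at both stages, at 53.7 against 29.2 CPM early, and its difference of 0.09 did not pass (adjusted p = 0.786). Gli1, for which no difference was detected at E10.5, had 3.88 CPM in early FLBs and 25.1 in early HLBs (-2.45, adjusted p = 0.00565). Of the glycolysis genes, 16 of 23 were lower and 1 higher in the early HLBs, and 14 had a higher difference at E10.5. Ldha had 3087 CPM in early FLBs and 1688 in early HLBs (1.30, adjusted p = 0.00019).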

How the data were processed

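RNA-seq libraries of 27 samples in 9 groups were made by the authors from stranded mRNA, read as single-end reads, aligned to mm10 with HISAT2 2.0.4 and counted with Cuffdiff, per the paper's methods and the submitters' processing notes. The notes list Cufflinks 2.1.1, and the paper names a later version of Cuffdiff. Tissue came from 3 embryos per the methods, with no map from embryo to library. The strand setting of the counting is not given in the sources used here. The authors deposited CPM, 1 value per gene (23279 genes) and library, which sum to 1000000 per library. Their group was taken from the labels. HLB replicate 2 entered only an alternative. Members, gene lists and tests were chosen with earlier results of these data known.

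CPM were scaled by a trimmed mean of log ratios over 26 libraries (30% of ratios and 5% of intensities trimmed), giving factors of 0.9756 to 1.04 for the compared libraries. Genes that reached 1 CPM in 2 or more of the libraries in a comparison entered limma 3.58.1 (trend, robust, two-sided, in R 4.3.3) as log2(scaled CPM + 0.5). Adjusted p are Benjamini-Hochberg values across every gene tested in that comparison. A count test with edgeR or DESeq2 was not run, because some of the estimated counts behind the CPM are fractions of a read. Depth was read from the spacing of low values, 99.1% to 99.4% of which were whole multiples within 0.1 of a read (95.7% to 96.7% in the early buds). Intervals and floors cover counting error only, as PCR reads without molecular identifiers are not independent molecules. Genes named are the markers, list members past the threshold at 16 CPM or more, all selectors and Hox genes, neighbours within 500 kb, and the 12 largest changes each way at 8 CPM or more without overlap (6 for the difference between stages). A few genes that this rule names are not reported here, though list counts include them. The script was tested on simulated data. Promoter sequences are from RefSeq and exon overlaps from GENCODE, both on GRCm38. Alternatives were other scalings, pseudocounts, filters, limma settings, pooled models, a replicate block, leaving out each library and a stricter threshold.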

Additional observations from a re-analysis of the deposited data

Results flagged for a closer look

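For several genes the difference between the limb types at E10.5 departed from that in the early buds by a test of the difference itself (limma, Benjamini-Hochberg), given here as the log2 fold change at E10.5 minus that in the early buds. Among the selectors these were Tbx5 (-1.55), Tbx4 (-3.00) and Pitx1 (2.52). Among Hox genes they were Hoxc10 (-1.3), Hoxc9 (1.55), Hoxb9 (2.40), Hoxb1 (3.43), Hoxd13 (-4.14), Hoxd12 (-5.59) and Hoxd11 (-4.41), with the antisense transcript Hoxa11as (-3.73). Hoxb9 had 62.9 and 57.6 CPM in early FLBs and HLBs against 2.95 and 15.7 at E10.5, and Hoxb1 had 20.3 and 0.901 CPM early and lay below the limit of detection in both limb types at E10.5.

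Lin28a (3.53) and Lin28b (1.69) were on the same list, as were Prtg (2.81), Upk3b (2.88), Wfikkn1 (2.93), Cdx1 (2.95) and Myod1 (-3.68). Prtg, a membrane protein of early embryonic tissues, had 373 and 110 CPM in early FLBs and HLBs and 19.6 and 41.0 at E10.5. Cdx1, a factor of the posterior trunk, had 46.8 and 8.63 CPM early and 1.18 and 1.70 at E10.5. Ndufs5 (-4.37), a subunit of respiratory complex I, was below the limit of detection in both E10.5 groups and in early FLBs, and had 11.1 CPM in early HLBs and 11 in the left-out HLB replicate 2.

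The left-out HLB replicate 2 gave a signal for hindlimb genes above that of the FLB libraries in the chromosomes it kept. It had 156 CPM for Tbx4, 235 for Pitx1 and 132 for Hoxc10, with 3661850 reads on genes.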

How the results depend on the processing

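Over named genes and alternatives, 3654 values at E10.5 kept direction and call, 445 lost the call, 10 gained it and 1 reversed, Hoxc8, at 0.12 and between -0.031 (without FLB replicate 3) and 0.20 when 1 library was left out. The spread model mattered most. Without limma's trend and robust estimation 192 genes were higher and 598 lower (main 1681 and 1476), 88 of 221 named calls were kept, and 3 FGF and 2 homeobox genes were higher. Without scaling 933 were higher and 2072 lower, and at a threshold of 0.01 1058 and 977. With a filter at 5 CPM, 27 genes were over 2-fold higher and 154 over 2-fold lower. Leaving out 1 library gave 1029 to 1403 higher and 1095 to 1316 lower, with 35 to 61 over 2-fold higher and 262 to 346 over 2-fold lower. The lowest counts of higher genes came without HLB replicate 1.

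For the difference against the early buds, 831 were higher and 2044 lower without scaling, 1075 higher without trend and robust estimation, and 855 and 698 at a threshold of 0.01. Leaving out 1 library gave 1070 to 1700 higher, lowest without HLB replicate 1, and 952 to 1366 lower.

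The labels number the replicates, and deviations from the group mean correlated at 0.0291 and 0.0289 between same-numbered libraries. With only 2 HLB libraries, their deviations mirror each other, so these values cannot decide whether libraries were paired. With the replicate block 1876 genes were higher and 1524 lower, and 1650 and 1330 for the difference. With HLB replicate 2 included and its lost region missing, they were 1912 and 1672. The planned edgeR test on recovered reads was not run, although most low values were whole, since the rest, among them the smallest, are fractions of a read. The depth puts the limit of detection at about 0.5 CPM at E10.5 and 0.149 to 0.165 in the early buds, and limits folds against genes near 0.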

Other observations

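Dnm3os, the noncoding host transcript of a miRNA cluster active in limb mesenchyme, was chosen after its values were seen. It was at 65.2, 114 and 153 CPM in FLBs and at 13.6 and 21.2 in HLBs, a log2 change of -2.58 ± 0.51 that did not pass at an adjusted p of 0.0513 (limma, Benjamini-Hochberg). The 3 FLB libraries lay above both HLB libraries but differed widely among themselves. Its difference against the early buds was -3.51 (adjusted p = 0.0323).

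Immediate early genes, which respond within minutes to handling of tissue, had 1 of 16 tested members higher and 4 lower in HLBs. Jun was at 30.4 CPM in HLBs and 57.3 in FLBs (-0.91 ± 0.09), and Btg2 at 11.2 and 18.2 (-0.67 ± 0.15). The higher member was Atf3, below 16 CPM and named after its values were seen. It had 3.13 CPM in HLBs and 1.02 in FLBs (1.26 ± 0.34). Fos and Egr1 did not pass. Sim2, a bHLH factor chosen after its values were seen, had 6.70 CPM in HLBs and 27.2 in FLBs (-1.95 ± 0.15), and Calb2, a calcium-binding protein, 1.6 and 8.62 (-2.18 ± 0.26).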
